A study of Mus musculus with 4 samples.

Results

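Among the immune cells sorted from mouse hearts, 133 of 4278 barcodes kept in the anti-CD40 library (3.11%, exact 95% interval 2.61 to 3.67) held transcripts of T cells and of macrophages together. In the isotype library 17 of 2558 did (0.665%, 0.388 to 1.06). A UMI is 1 counted transcript molecule, and a barcode was kept if it had 200 genes or more and less than 10% of its UMIs from mitochondrial genes. A T cell-macrophage droplet was then any kept barcode with at least 2 UMIs of Cd3d, Cd3e and Cd3g summed and at least 20 of C1qa, C1qb and C1qc summed. It also had at most 4 UMIs of the B cell genes Cd79a, Cd79b and Ms4a1 and at most 2 of the neutrophil genes Csf3r and Retnlg. The droplets were thus selected on measured Cd3, C1q, B cell and neutrophil counts, and the levels of these genes are not results.

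The Cd3 chains carry the signal of the T cell receptor, and Cd8a and Cd8b1 form the co-receptor of cytotoxic T cells, which bind peptides on MHC class I. C1q is the recognition protein of the classical complement pathway, made in tissues mainly by macrophages, which engulf dying cells and present antigen to T cells by direct contact. A droplet barcode reports all RNA captured in that droplet, so cells that stick together or are caught together give a single profile.

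The study used CITE-seq, which reads transcripts and DNA-tagged antibodies from the same droplet. C57BL6J mice received an agonist antibody to CD40 or a rat IgG isotype antibody, and the hearts of 4 mice per condition were pooled into 1 library. Age, sex and the time after injection are not given in the labels used here. The sample labels describe live cells gated as CD45-positive and DAPI-negative, and the design text names DRAQ5 with DAPI instead. Each condition was 1 library, so no difference between conditions or droplet sets was tested, and intervals describe counting error alone. The effect of treatment and that of the separate preparations cannot be told apart.

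The droplets were compared with 2 sets from their own library, both with the same B cell and neutrophil limits. T cells were the 171 barcodes with the Cd3 sum at 2 or more and a C1q sum of at most 9, and macrophages were the 2092 barcodes with the C1q sum at 20 or more and a Cd3 sum of at most 1. In the isotype library these sets held 43 and 619 barcodes. Macrophages made up 48.9% of kept barcodes in the anti-CD40 library and 24.2% in the isotype library. No droplet of interest carried a barcode sequence that the other library also contained, and 13 barcodes occurred in both libraries.

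Few Cd3-bearing barcodes had intermediate C1q counts. Of 318 in the anti-CD40 library, 171 had a C1q sum of 0 to 9, 14 had 10 to 19 and 133 had 20 or more (41.8%, 36.3 to 47.5). Of 64 in the isotype library, the counts were 43, 4 and 17 (26.6%, 16.3 to 39.1). The anti-CD40 droplets held from 21 to 832 C1q UMIs with a median of 271, against a median of 162 in the macrophages. These values were used to choose the sets and are given as a description. T cells, NK cells and neutrophils with low C1q all had a median of 3 C1q UMIs in this library.

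**Figure D1:**
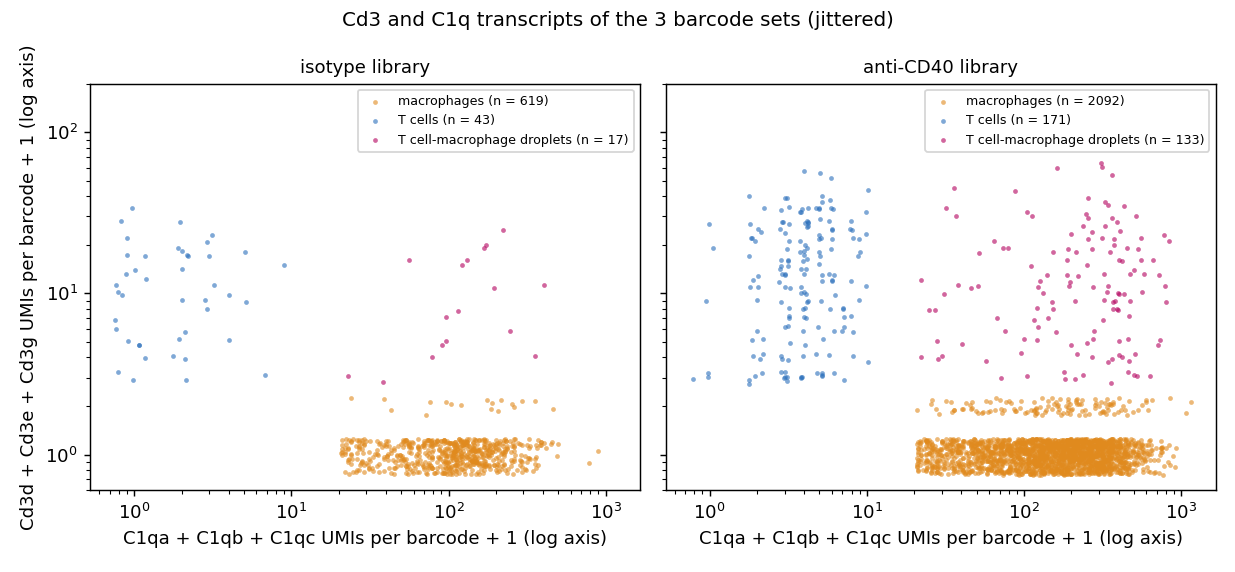
Summed Cd3 UMIs plotted against summed C1q UMIs for each barcode of the 3 sets, in the isotype and anti-CD40 libraries (1 added to each sum, logarithmic axes, points jittered). The 133 anti-CD40 droplets and 17 isotype droplets lie to the right of the T cells and above the macrophages, with 14 and 4 barcodes of intermediate C1q not drawn.

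Barcodes of other lineages also carried C1q transcripts at this level. In the anti-CD40 library 33 of 165 NK cell barcodes (20.0%, 14.2 to 26.9), 244 of 560 neutrophil barcodes (43.6%, 39.4 to 47.8) and 21 of 34 B cell barcodes (61.8%, 43.6 to 77.8) had 20 or more C1q UMIs. In the isotype library the shares were 7 of 127 (5.51%, 2.24 to 11), 56 of 224 (25%, 19.5 to 31.2) and 234 of 610 (38.4%, 34.5 to 42.4). In each of the 4 lineages the share was higher in the anti-CD40 library, where macrophages were also more frequent, although the intervals for Cd3 barcodes overlapped. The part of macrophage frequency in the number of T cell-macrophage droplets was not tested.

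**Figure D2:**
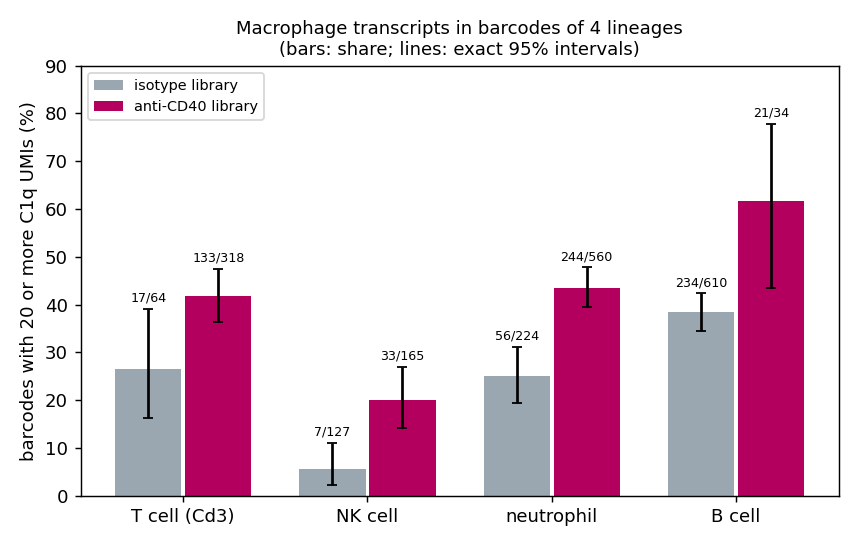
Share of T cell, NK cell, neutrophil and B cell barcodes with 20 or more C1q UMIs, in percent, in the isotype (grey) and anti-CD40 (red) libraries, with exact 95% intervals and counts above the bars. The anti-CD40 bar is the higher of the pair in all 4 lineages, at 41.8% against 26.6% for Cd3 barcodes.

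The droplets were rich in RNA and in antibody tags. The rule asks for minimum raw counts of both Cd3 and C1q, which favours barcodes with more UMIs, so depth is given as a description. Gene UMIs ran from 4336 to 62800 with a median of 21739, against medians of 6066 in T cells and 11581.5 in macrophages. The median of the droplets was thus 1.23 times the sum of the other medians, 17647.5. Tag UMIs had a median of 7822, or 1.54 times the corresponding sum of 5066. The median number of genes was 4889, against 2208 and 3196. The 17 isotype droplets gave the same ratio for gene UMIs, 1.23, from medians of 17240, 6114 and 7920.

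A full T cell gene set was present beside the macrophage genes. The count of UMIs per droplet is given first, since a share of all UMIs falls whenever other RNA is added. Over 22 T cell marker genes other than Cd3d, Cd3e and Cd3g, the droplets held a mean of 70.0 UMIs in sum, the T cells 69.4 and the macrophages 1.88. The median ratio of droplets to T cells over these genes was 1.04. Trac, which encodes the constant part of the receptor alpha chain, had from 0 to 28 UMIs with a median of 2 in the droplets and from 0 to 15 with a median of 2 in T cells. Cd8b1 had from 0 to 29 with a median of 3, and from 0 to 39 with a median of 3 in T cells. The medians of droplets and T cells were equal for both genes and the ranges overlapped, with the highest Trac count in a droplet and the highest Cd8b1 count in a T cell, while the macrophage medians were 0. At least 1 UMI of Trac, Trbc1 or Trbc2 was found in 127 of 133 droplets (95.5%), 157 of 171 T cells (91.8%) and 213 of 2092 macrophages (10.2%).

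Counted in UMIs per droplet, the macrophage genes lay above the level of the macrophages, which had fewer gene UMIs (median 11581.5 against 21739). Over 22 markers other than the C1q genes the mean sum was 460 UMIs per droplet, 342 per macrophage and 23.5 per T cell, and the median ratio to macrophages was 1.36. Csf1r, the receptor for the growth factor on which macrophages depend, had from 0 to 29 UMIs with a median of 7 in the droplets, against medians of 5 in macrophages and 0 in T cells. Adgre1, which encodes the F4/80 antigen, had from 0 to 33 with a median of 2, against medians of 1 and 0. Of the 22 genes only Trem2, a lipid-sensing receptor, had a mean in the droplets below that of macrophages, 0.76 against 1.04 UMIs.

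**Figure D3:**
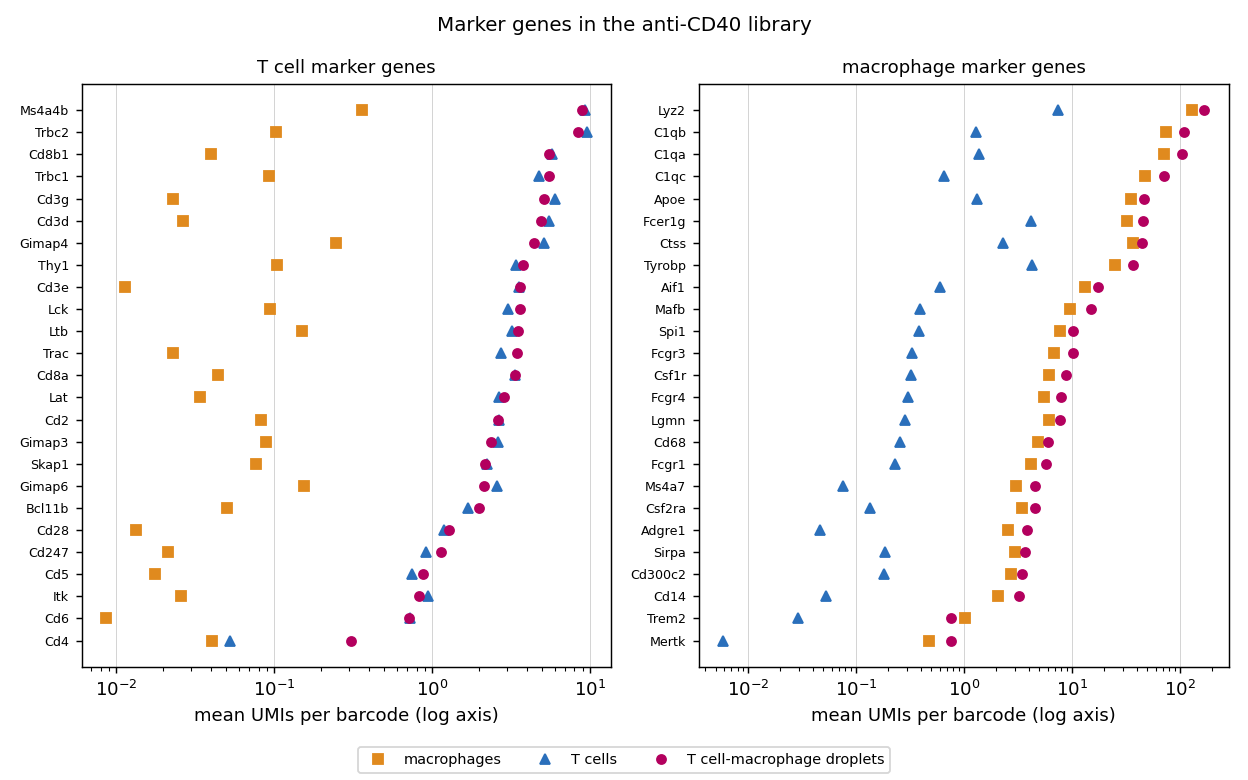
Mean UMIs per barcode of T cell and macrophage marker genes in the anti-CD40 library (logarithmic axis), for the 133 T cell-macrophage droplets, 171 T cells and 2092 macrophages. The droplets follow the T cells for the T cell genes, other than Cd4, and lie just above the macrophages for the macrophage genes, other than Trem2; the 3 Cd3 and 3 C1q genes drawn here chose the sets.

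On the scale of CPM, UMIs scaled to the gene UMIs of a set, the T cell genes were diluted. Here UMIs were summed over a set, log2 ratios used a prior of 10 CPM, and 12087 genes had at least 30 UMIs over the 3 sets. Cd8a was at 140 CPM in the droplets (Poisson interval 127 to 154), 490 in T cells (451 to 532) and 3.28 in macrophages (2.65 to 4.02). Over 1.5-fold lower than in T cells were 21 of the 22 T cell genes, with a median log2 ratio of -1.62, against 8.96% of all genes tested. All 22 macrophage genes were over 1.5-fold higher than in T cells, against 13.3% of all genes. Against macrophages, 22 of 22 T cell genes were over 1.5-fold higher (4.16% of all genes) and 1 of 22 macrophage genes, Trem2, was over 1.5-fold lower (0.529% of all genes). The median of the macrophage genes was -0.37. Because the sets were cut on Cd3 and C1q, genes that accompany these had to follow, and nothing more is read from these counts.

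A closer reference was an equal mix of 1 average T cell and 1 average macrophage, built by adding the mean UMIs per gene of both sets and scaling to CPM. T cells supplied 33.6% of the UMIs of this mix. Of 12087 genes, 2 were over 2-fold higher in the droplets than in the mix (0.0165%) and 8 were over 2-fold lower (0.0662%). These counts depended on the prior and on depth: they were 45 and 179 with a prior of 1 CPM, and 40 and 156 with every barcode thinned to 2000 UMIs. At the smaller limit of 1.5-fold, 0.256% of all genes lay above the mix and 0.306% below, so a short list with none called is near the share of all genes. The T cell markers had a median log2 ratio to the mix of -0.18 and the macrophage markers of 0.11, with 0.02 over all genes tested.

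Genes of resident macrophages, the self-renewing population of the heart, lay above the mix. Over 1.5-fold higher were 7 of 12 genes on a list of resident macrophage markers, against 0.256% of all genes, and the list median was 0.64. None of the 12 was over 1.5-fold lower (0.306% of all genes). Lyve1, a hyaluronan receptor, ranged from 0 to 85 UMIs with a median of 0 and was found in 57 of the 133 droplets. Its pooled level was 233 CPM (217 to 250), against 12 in T cells, 137 in macrophages and 95 in the mix, a 2.45-fold excess over the mix (2.28 to 2.64). The 10 droplets with the most Lyve1 held 58.2% of its UMIs. A Lyve1 UMI was found in 42.9% of droplets, 24.1% of macrophages and 5.26% of T cells, and at 2000 UMIs per barcode in 18.8% (12.5 to 26.5), 13.8% (12.3 to 15.3) and 1.99%, with overlapping intervals for droplets and macrophages.

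Folr2, which encodes folate receptor beta, ranged from 0 to 36 with a median of 1. It was at 214 CPM, against 103 in the mix (log2 0.99) and 150 in macrophages. Timd4, a receptor for phosphatidylserine on dying cells, was at 107 CPM against 54.8 in the mix and 79.9 in macrophages. Cbr2, a carbonyl reductase, was at 132 CPM, against 65.5 and 97.3. The scavenger receptor gene Cd163 and the chemokine gene Pf4 gave log2 ratios to the mix of 0.66 and 0.63. With each gene measured without the droplet highest in it, 5 of the 12 resident genes were over 1.5-fold higher, as Cd163 (0.55) and Pf4 (0.57) then lay just below that limit. Also among the highest were the lectin gene Mgl2 (0.84), the complement gene C4b (0.83) and the clotting factor gene F13a1 (0.76).

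The 12 resident genes were 1 of several lists, and against macrophages alone their excess was smaller. Their median log2 ratio to macrophages was 0.16, and 1 of 12, Lyve1, was over 1.5-fold higher, against 4.16% of all genes. Set beside only the 1046 macrophages with the most UMIs (median 17871), the ratios were 0.82 for Lyve1, 0.46 for Folr2 and 0.43 for Timd4. After each barcode was thinned to 2000 UMIs, 55 of 133 droplets (41.4%, 32.9 to 50.2) held a UMI of Timd4, Lyve1 or Folr2, against 587 of 2071 macrophages (28.3%, 26.4 to 30.3) and 4 of 151 T cells (2.65%). Without thinning the shares were 69.9%, 48.4% and 14%. The thinned intervals of droplets and macrophages did not overlap, but they describe counting error within 1 library, and no difference was tested.

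Tags to the same antigens were read as well, and no tag was used to choose the droplets. The folate receptor beta tag ranged from 3 to 4434 UMIs with a median of 332 in the droplets, against medians of 38 in macrophages and 5 in T cells. The TIM-4 tag had a median of 33, against 4 and 1, and the CD163 tag 25, against 4 and 2. The share of droplets above the 95th percentile of the T cells was 72.2% for folate receptor beta (63.7 to 79.6), 64.7% for TIM-4 (55.9 to 72.7) and 57.9% for CD163 (49 to 66.4). In macrophages it was 45.4%, 41.5% and 34.4%. Macrophage tags outside the resident list were higher too. The CCR2 tag passed its limit in 66.9% of droplets (58.2 to 74.8) and 40.2% of macrophages, and the CD11b tag in 75.9% and 53.6%. The higher shares in raw tag UMIs were thus not particular to resident antigens. On a CPM scale of tag UMIs the totals were closer, at 55197 in the droplets and 48702 in macrophages for folate receptor beta. TIM-4 was at 10590 against 8473 and CD163 at 18496 against 14001, so these resident tags stayed higher in the droplets. The CCR2 tag, at 829 against 964, and the CD11b tag, at 19751 against 21976, were lower. The droplets also had more tag UMIs in all, with a median of 7822 against 3474 in macrophages. The part of this larger tag total in the gap between medians was not tested.

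Genes of monocyte-derived macrophages had a list median of -0.23 against the mix. Of 10, 0 were over 1.5-fold above it (0.256% of all genes) and 1, Ly6i, was over 1.5-fold below (0.306% of all genes). Ccr2, the chemokine receptor that draws monocytes into tissue, ranged from 0 to 42 UMIs with a median of 1 and was at 199 CPM (184 to 215), against 298 in macrophages, 192 in T cells and 263 in the mix. After thinning, 26.3% of droplets (19.1 to 34.7) and 30.9% of macrophages (28.9 to 32.9) had a Ccr2 UMI, with overlapping intervals. The CCR2 tag had a median of 6 UMIs in the droplets and 3 in macrophages, but 829 against 964 on a CPM scale of tag UMIs.

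The T cell side was mostly of the CD8 type. A UMI of Cd8a or Cd8b1 without Cd4 was found in 93 of 133 droplets (69.9%) and 119 of 171 T cells (69.6%). At 2000 UMIs per barcode it was 57 of 133 droplets (42.9%, 34.3 to 51.7), 100 of 151 T cells (66.2%, 58.1 to 73.7) and 27 of 2071 macrophages (1.30%), with 20 T cells and 21 macrophages too shallow to be used. Thinning removes T cell transcripts from a droplet in proportion to its macrophage RNA, so the thinned shares compare the sets as whole profiles. The CD8b tag ranged from 0 to 758 UMIs with a median of 161, against 111 in T cells and 1 in macrophages. The CD8a tag alone passed the 95th percentile of macrophages in 92 droplets (69.2%, 60.6 to 76.9) and 126 T cells (73.7%, 66.4 to 80.1).

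CD4 signal was also found. Cd4 had 41 UMIs in 20 droplets, 12.8 CPM (9.21 to 17.4) against 7.68 in T cells, 3.0 in macrophages and 4.58 in the mix (log2 0.65). It was 1 of 22 T cell markers over 1.5-fold above the mix, against 0.256% of all genes, but without the droplet with the most Cd4 (6 of the 41 UMIs) its log2 ratio was 0.54, below that limit. The CD4 tag alone passed its limit in 12 droplets (9.02%, 4.75 to 15.2) and 10 T cells (5.85%, 2.84 to 10.5). Tags to CD8a and CD4 both passed in 19 droplets (14.3%, 8.83 to 21.4), 3 T cells (1.75%, 0.363 to 5.04) and 10 macrophages (0.478%). The part of the larger tag total of the droplets in this share was not tested.

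Effector genes of T cells had a list median of -0.30 against the mix. Of 16 genes, 3 were over 1.5-fold below (Ccl5, Gzma and Fasl, against 0.306% of all genes) and 2 above (Ifng and Tnf, against 0.256%). Ccl5, a chemokine of cytotoxic lymphocytes, ranged from 0 to 345 UMIs with a median of 48, against 62 in T cells and 1 in macrophages. It was at 2546 CPM against 4675 in the mix (log2 -0.87) and 13205 in T cells. The protease gene Gzma, shared with NK cells, was at 450 CPM against 777 in the mix. Of 9 NK cell markers 0 were over 1.5-fold above and 2 below the mix (0.256% and 0.306% of all genes), with a median of -0.38, and 18.1% of the T cells and 12.8% of the droplets held a UMI of Ncr1 or Klrb1c; the part of NK transcripts among the T cells in the lower effector genes was not tested. Gzmb and Prf1, the granule protease and the pore protein of killing, gave -0.26 and -0.27. Tnf, an inflammatory cytokine of both cell types, was at 91.1 CPM against 56.8 (log2 0.60), and at 0.54 without its highest droplet, below the 1.5-fold limit.

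Ifng, the cytokine by which T cells activate macrophages, showed how 1 droplet can set a pooled value. It was found in 65 of 133 droplets, with a median of 0 and a highest value of 569 UMIs, and in 92 of 171 T cells, with a highest value of 41. That droplet held 569 of the 803 Ifng UMIs and 31 of the 37 Csf2 UMIs, and the next droplet had 16 Ifng UMIs. It also had 6 UMIs of Cd4, 0 of Cd8a, a Cd3 sum of 60 and a C1q sum of 313. With it Ifng was at 251 CPM, against 110 in the mix (log2 1.12), and without it at 74.5 CPM (log2 -0.51). Csf2 likewise fell from a log2 ratio of 0.94 to 0.08. The B cell-attracting chemokine gene Cxcl13 (635 UMIs, 268 in 1 droplet) fell from 0.82 to 0.10, and Bambi (36 UMIs, 26 in 1 droplet) from 0.77 to 0.07. The last of the 12 genes highest against the mix, Ampd2, an enzyme of purine metabolism, was at 15.7 CPM against 5.96. Lyve1 without its highest droplet stayed at 1.06.

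Genes of the interferon-gamma response had a median log2 ratio to the mix of 0.08. Of 21, 0 were over 1.5-fold away from it, near the 0.256% above and 0.306% below of all genes. Cxcl9, a chemokine for T cells that macrophages make on exposure to interferon-gamma, ranged from 0 to 161 UMIs with a median of 10, against 6 in macrophages and 0 in T cells, and gave -0.13. Its receptor gene Cxcr3 gave -0.41. The 7 MHC class II genes had a median of 0.10, and H2-Aa had from 6 to 481 UMIs with a median of 141, against 103 in macrophages and 2 in T cells. The 16 macrophage costimulation and adhesion ligands had a median of 0.12, and 0 were over 1.5-fold above or below the mix (0.256% and 0.306% of all genes), among them Cd40 (0.11), Cd86 (0.21) and Cd274, which encodes PD-L1 (-0.01).

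Receptor signalling and checkpoint genes of T cells gave medians of -0.06 over 12 genes and -0.11 over 11. In the first list 0 genes were over 1.5-fold away from the mix, against 0.256% above and 0.306% below of all genes. In the second 1 gene was over 1.5-fold higher, Ctla4, a brake on costimulation (101 UMIs, 31.6 CPM against 16.1 in the mix). Pdcd1, which encodes PD-1, gave 0.09, and the PD-1 tag had a median of 11 UMIs in the droplets, against 5 in T cells and 1 in macrophages. On a CPM scale of tag UMIs the PD-1 tag was at 1358 in the droplets, 3673 in T cells and 375 in macrophages. The costimulatory receptor gene Cd28 gave -0.12. T homing and naive and memory lists gave medians of -0.09 and -0.12 with 0 genes over 1.5-fold away from the mix in either direction, near the share of all genes; among them the homing receptor gene Cxcr6 gave -0.49.

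Cell cycle transcripts were found in more of the droplets than of the other sets. Mki67, a marker of cycling cells, ranged from 0 to 67 UMIs with a median of 1, against 0 in T cells and in macrophages. After thinning, 56 of 133 droplets (42.1%, 33.6 to 51.0) held Mki67 or Top2a, against 41 of 151 T cells (27.2%, 20.2 to 35.0) and 313 of 2071 macrophages (15.1%, 13.6 to 16.7), with overlapping intervals for droplets and T cells. Without thinning the shares were 74.4%, 46.8% and 34.0%. Summed over 16 cell cycle genes, the level was 2184 CPM in the droplets, between 3125 in T cells and 1489 in macrophages. On the pooled scale Mki67 was at 239 CPM against 190 in the mix (log2 0.31), and 0 of 16 cell cycle genes were over 1.5-fold from it, near the 0.256% above and 0.306% below of all genes. The 12 immediate early genes, which respond to stress and tissue digestion, had a median of 0.33, with 0 over 1.5-fold from the mix.

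**Figure D4:**
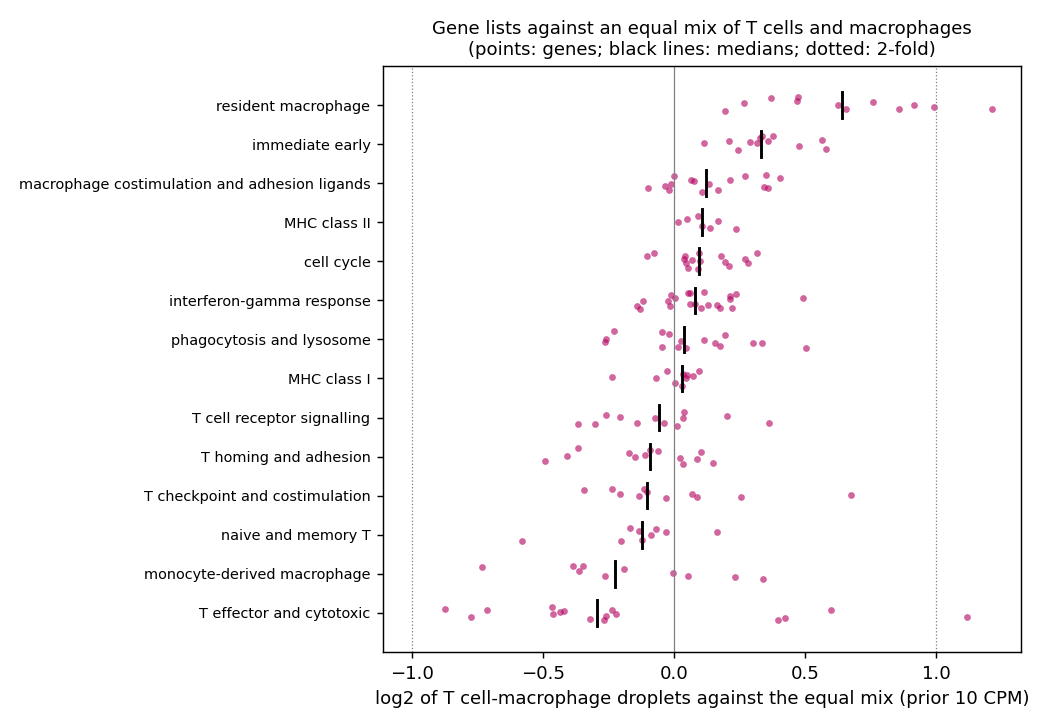
Log2 ratio of the 133 anti-CD40 T cell-macrophage droplets to the equal mix for each tested gene of 14 lists, with the list median as a black line. Resident macrophage genes have the highest median (0.64) and T effector genes the lowest (-0.30), where the rightmost point is Ifng, which rests on 1 droplet.

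The 8 genes named as lowest against the mix were Dcn, Mgp, Serping1, Sparc and Gsn, which fibroblasts and other matrix-making cells express, Fabp4, a lipid carrier of capillary endothelium, Ccl5 and the macrophage elastase gene Mmp12. For the first 5, 1 barcode of the T cell set supplied most of the T cell part of the mix: 148 of 152 Dcn UMIs, 356 of 406 of Gsn, 40 of 40 of Mgp, 32 of 33 of Serping1 and 16 of 17 of Sparc. With all T cells, Sparc, Gsn and Ccl5 lay within 2-fold of the mix. The named 8 are thus not the 8 over 2-fold below it among all genes tested. Without that barcode, an alternative chosen after seeing the data, 4 rather than 8 of all genes tested were over 2-fold below the mix. Dcn then moved from -2.15 to -1.35, Mgp from -1.22 to -0.66, Serping1 from -1.16 to -0.69 and Sparc from -0.94 to -0.70. Gsn moved from -0.87 to -0.31 and was no longer over 1.5-fold lower, with a mean of 3.95 UMIs per droplet and 3.92 per macrophage. Fabp4 stayed at -1.61, at 23.2 CPM against 129 in macrophages and 17.9 in T cells, and Mmp12 at -1.03. In macrophages 10 of 2092 barcodes held 85.2% of the Dcn UMIs and, likewise, 10 held 63.0% of those of Fabp4. Of 6 fibroblast markers 4 were over 1.5-fold lower than the mix (0.306% of all genes), but 1 without that T cell barcode, and Col1a1, Pdgfra and Lum were at 0 UMIs in the droplets. The summed B cell, neutrophil and endothelial markers were at 169, 208 and 54.5 CPM, against 207, 320 and 187 in macrophages.

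Surface tags of both cell types were read from the same droplets. With the limits planned for this comparison (over 4 UMIs of the CD3 tag, the 95th percentile of macrophages, and over 1 of the first F4/80 tag, that of T cells), 43 of 133 droplets passed both (32.3%, 24.5 to 41.0). The share was 3.01% when each tag was taken as a share of all tag UMIs of its barcode, and 9.02% with 99th percentiles as limits. Of T cells 1 of 171 (0.585%) and of macrophages 66 of 2092 (3.15%) passed both, and since the limits are percentiles of these same sets, few of either could. The CD3 limit was passed by 62 droplets (46.6%) but only 30 T cells (17.5%). The F4/80 limit was passed by 88 droplets (66.2%) and 883 macrophages (42.2%). Both tags had few UMIs, with medians of 4 and 2 in the droplets. CD90.2, the Thy-1 antigen of T cells, and a second F4/80 tag were brighter. CD90.2 ranged from 1 to 952 UMIs with a median of 238, against 186 in T cells and 3 in macrophages. The second F4/80 tag ranged from 71 to 10218 with a median of 1420, against 23 and 814.5.

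With this pair, which was chosen after its values were seen, 96 droplets passed both limits (72.2%, 63.7 to 79.6), 26 only CD90.2, 5 only F4/80 and 6 neither. Of T cells 8 (4.68%) and of macrophages 78 (3.73%) passed both, shares that the limits again keep low. Other T cell tags lay above the T cells, with medians of 56 against 37 UMIs for CD5 and 144 against 122 for CD2. On a CPM scale of tag UMIs both were lower than in T cells, at 8566 against 30640 and 16042 against 62866. Other macrophage tags lay above the macrophages in raw UMIs, with medians of 113 against 61 for the integrin CD11b, 60 against 32 for CD14 and 108 against 69 for SIRP-alpha. As CPM of tag UMIs all of these were lower than in macrophages, at 19751 against 21976, 8217 against 10369 and 14038 against 18382.5. CD45, which both types carry, had a median of 273, against 134 in T cells and 96 in macrophages. The 9 control antibodies summed to medians of 4, 0 and 2, so nonspecific tag signal in raw UMIs was also higher in the droplets. Scaled to all tag UMIs, the controls were at 687 CPM in the droplets, 370 in T cells and 673 in macrophages.

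**Figure D5:**
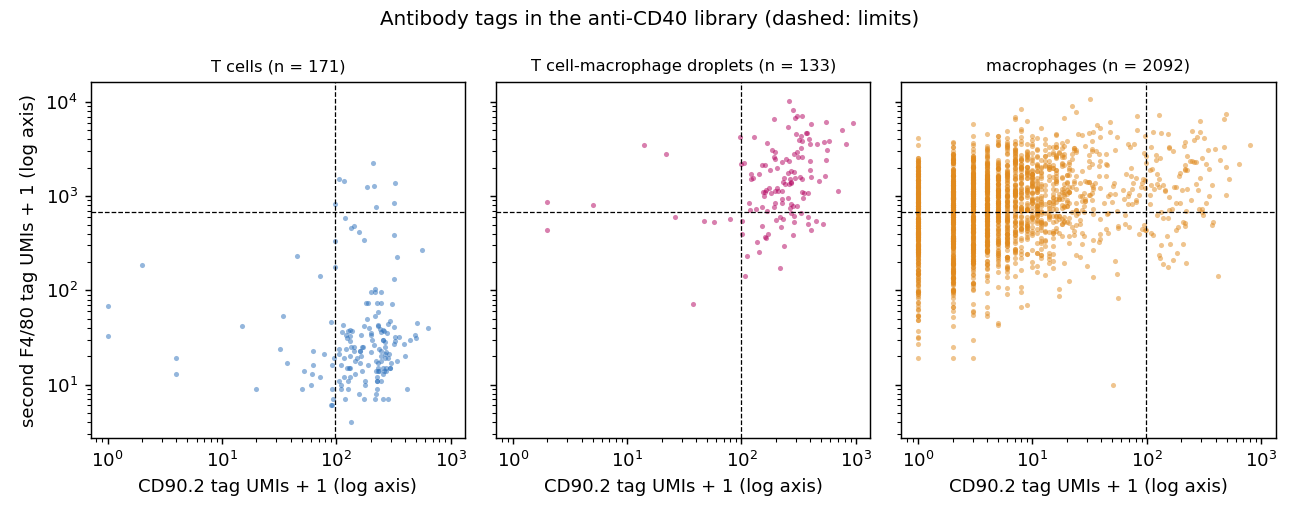
CD90.2 tag UMIs against second F4/80 tag UMIs for each barcode of the T cells, the T cell-macrophage droplets and the macrophages of the anti-CD40 library (1 added, logarithmic axes; dashed lines mark the 95th percentile of macrophages for CD90.2 and of T cells for F4/80). In the upper right corner lie 72.2% of the droplets, 4.68% of the T cells and 3.73% of the macrophages.

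Along the Cd3 limit the sets graded into each other. The 24 droplets with a Cd3 sum of 2 or 3 had 182 CPM of Trac, Trbc1 and Trbc2, and 75% held such a UMI. Just outside, the 128 barcodes with a Cd3 sum of 1 had 35.6 CPM and 18.75%, and the 1964 with a sum of 0 had 14.9 CPM and 9.62%. The 109 droplets with 4 or more had 821 CPM. The 14 droplets with a C1q sum of 20 to 49 had 190 CPM of Csf1r, against 24.6 in the 14 Cd3 barcodes with 10 to 19.

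The isotype library gave 17 droplets, and no difference from the anti-CD40 droplets was tested. Over the 22 T cell markers their median ratio to isotype T cells in UMIs per barcode was 0.99, and over the 22 macrophage markers the ratio to macrophages was 1.37. The median log2 ratios to their own mix were -0.22 and 0.17. CD90.2 and the second F4/80 tag both passed their limits in 11 of 17 (64.7%, 38.3 to 85.8). The CD8a tag alone passed in 8 (47.1%, 23 to 72.2) and the CD4 tag alone in 5 (29.4%, 10.3 to 56.0), against 17 and 14 of 43 isotype T cells. Resident macrophage genes gave a median of 0.26 against the mix and -0.47 against isotype macrophages, where the anti-CD40 droplets had 0.16. Lyve1 was at 389 CPM in the droplets and 432 in macrophages, Timd4 at 117 and 90.7, and Ccr2 at 441 and 173, with 49 of the 136 Ccr2 UMIs in 1 droplet. Mki67 or Top2a was found in 0 of 17 thinned droplets (exact upper limit 19.5%).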

How the data were processed

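Gene transcripts and antibody tags were counted in 2 libraries of pooled mouse heart cells, 1 isotype and 1 anti-CD40. The authors deposited raw UMI counts per feature and barcode, with no normalization, for 32285 genes and 198 antibody tags, 9 of them controls. Cell Ranger 6.0.1 made the matrices per the file headers, but Cell Ranger 3, Seurat 3 and the builds mm10 and GRCh38 are named, with no role, in the submitters' processing notes. The deposited feature and barcode lists hold names and other identifiers only.

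Droplets, T cells and macrophages were set by the UMI limits in the report (python 3.11.15, numpy 2.4.6, scipy 1.17.1, pandas 2.3.3). UMIs were summed per set. Shares carry Clopper-Pearson intervals and CPM Poisson intervals at 95%. Thinning drew 2000 UMIs per barcode without replacement (seed 7). Tag limits were 95th percentiles. The planned T cell receptor beta tag was not matched in the deposited panel, so the CD3 tag was used as planned. No doublet caller was applied, since it would remove the droplets described. Genes named are the 3 with most UMIs of a list, the 12 highest and 8 lowest against the mix with 30 UMIs and 5% detection, and a fixed set. Not every example the rule takes is printed. The droplets and lists were chosen with earlier results of these data known. The comparison with the mix was tested on simulated Poisson counts around the mean profile of each set. Such counts lack the uneven barcodes of the real data. The simulation therefore does not cover genes set by a single barcode, nor the choice of prior.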

Additional observations from a re-analysis of the deposited data

How the results depend on the processing

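Of 90 alternative values of 11 summary results, 63 stayed within the counting interval or, for counts of genes, within 1.5 times the first value, and 27 did not. With no limit on mitochondrial UMIs the droplets were 1.99% of anti-CD40 and 0.375% of isotype barcodes, and the ratio of UMIs was 1.46. With 500 genes and under 5% mitochondrial UMIs that ratio was 1.11, 9 genes were over 2-fold above the mix and 41.8% of droplets passed both tag limits. A Cd3 sum of 4 or more left 2.55% of barcodes, with 4 genes above and 3 below the mix. At most 1 B cell UMI and 0 neutrophil UMIs left 1.82% of barcodes and 34.4% of Cd3 barcodes, with 5 genes above the mix, 24.4% above both tag limits and Ifng reversed to -0.39. Ifng also reversed, to -0.51, without its highest droplet, an alternative chosen after seeing the data. The counts of genes above and below the mix were 40 and 156 after thinning, 45 and 179 with a prior of 1 CPM, and 8 and 4 against T cells with a receptor constant UMI and no Ncr1 or Klrb1c, for which the T cell list was at -1.86. Averaging CPM per barcode left 1 gene above the mix, and leaving out the T cell barcode highest in Dcn, an alternative chosen after seeing the data, left 4 below it. The share above both tag limits was 3.01% as shares of all tag UMIs, 9.02% with 99th percentiles and 72.2% with CD90.2 and the second F4/80 tag, a pair chosen after seeing the data. The share with Cd8a or Cd8b1 and no Cd4 was 69.9% with all UMIs and 54.9% at 4000. The cause of these shifts was not tested. Of 650 alternative values for 50 named genes, 467 stayed within the counting interval and 181, from 49 genes, moved beyond it. The remaining 2, both of Ifng, were called reversed, which only genes over 2-fold from the mix could be. In all, 40 of the 650 values, from 21 genes, had the other sign than the first value.

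No paired analysis was possible because each condition was 1 library without replicate numbers. Depth limits the isotype values, which rest on 17 droplets, and genes with few UMIs, whose counts against the mix moved most with the prior and with thinning. The number of cells in a droplet was not measured.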
